A study of Mus musculus with 8 samples.

Results

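The first steps of glycolysis trap glucose in the cell and commit it to breakdown, and the 9 genes described here encode the enzymes that carry them out or set their pace. Hk1 and Hk2 encode hexokinases, which phosphorylate glucose. Gpi1 encodes glucose-6-phosphate isomerase, which turns glucose 6-phosphate into fructose 6-phosphate. Pfkl, Pfkm and Pfkp encode the liver, muscle and platelet subunits of 6-phosphofructo-1-kinase (PFK), which assemble into tetramers. Pfkfb2, Pfkfb3 and Pfkfb4 encode bifunctional enzymes that make and break fructose 2,6-bisphosphate, the strongest allosteric activator of PFK. The genes were chosen by name, as the isoenzymes of these steps, and all 9 of 9 were found by Ensembl identifier among the 55385 genes of the count table.

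Most tissues carry a mixture of isoenzymes, and the mixture matters because the isoenzymes differ in regulation. Hk2 is the inducible hexokinase of muscle, fat and many dividing cells, while Hk1 is the more constant form. PFKFB3 has a kinase activity far above its phosphatase activity, and PFKFB2 and PFKFB4 are more balanced. Pluripotent stem cells are known for a high rate of glycolysis.

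RNA was measured in 8 libraries of R1 mESCs (a male line of mouse embryonic stem cells, genotype listed as WT), grown in N2B27 medium with 2i and Lif on coated plates. All cells, controls included, were infected with lentivirus carrying a hairpin for 2 days and selected with puromycin for 3 days, so each library is a selected population rather than a clone. There were 3 biological replicates with shRNA1 and 3 with shRNA2, which are hairpins against different parts of Eftud2 (a GTPase of the U5 spliceosomal particle), and 2 with nt-shRNA, a non-targeting hairpin. Whether the replicates were separate infections is not stated, so the p-values measure the spread between these libraries. Total counts ran from 19569525 to 29871048 per library, and both nt-shRNA libraries and shRNA1 replicate 3 were the deepest 3.

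Eftud2 itself was 262.3 and 255.7 CPM (read pairs per gene relative to the TMM-normalized library size) in the nt-shRNA libraries. It was 231.9, 229.2 and 225.3 CPM with shRNA1 and 198.2, 202.1 and 234.7 CPM with shRNA2. Both hairpin groups lay below the controls, and shRNA2 replicate 3 lay above every shRNA1 library. The log2 fold change against nt-shRNA was -0.29 with shRNA2 (SE 0.07, adjusted p = 0.00122, edgeR quasi-likelihood test) and -0.18 with shRNA1 (SE 0.07, adjusted p = 0.0514), which did not pass the threshold of 0.05. A difference between the hairpins was not called (log2 fold change of shRNA2 against shRNA1 -0.11, SE 0.06, adjusted p = 0.164). The shRNA1 call depended on the fit. It passed with no filter on low counts (adjusted p = 0.0300), with the groups compared alone (0.0491) and with replicate number as a block (0.0206). It also passed without shRNA2 replicate 2 (0.0415) and without shRNA2 replicate 3 (0.0215), where the difference between the hairpins passed as well (0.0127). Scaled by library size alone, the log2 fold change with shRNA1 was smaller, at -0.06 (adjusted p = 0.498), and was not called. The 8 naive stem cell markers fixed for this check, Pou5f1 and Nanog among them, were each at 169.8 CPM or more in all libraries. Their summed level was 4357 to 4438 CPM with nt-shRNA, 4855 to 5026 CPM with shRNA1 and 5840 to 6031 CPM with shRNA2. The 15 markers of fibroblasts, muscle, liver and erythroid cells, tissues with isoenzyme patterns of their own, did not exceed 3.24 CPM in any library. The 4 trophectoderm markers summed to 131.7 to 140.5 CPM with nt-shRNA, 93.9 to 112.9 CPM with shRNA1 and 75.9 to 84.9 CPM with shRNA2, with Cdx2 and Elf5 under 1 CPM throughout; the 3 neural markers summed to 66.6 to 67.0, 46.2 to 55.5 and 25.5 to 32.9 CPM. The 4 markers of primed cells summed to 81.8 to 92.0 CPM with nt-shRNA, 99.1 to 109.2 CPM with shRNA1 and 119.1 to 126.3 CPM with shRNA2, and the 4 of primitive endoderm to 23.1 to 23.5, 21.7 to 25.7 and 17.1 to 19.1 CPM. The 3 mesoderm markers summed to 1.54 to 1.88, 1.25 to 1.78 and 2.11 to 2.84 CPM in the same order. For primitive endoderm and mesoderm, shRNA1 overlapped with nt-shRNA. The other sums given here, that of the naive markers included, differed between all 3 groups without overlap. The part of all these markers in the results below was not tested.

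Promoter sequence is shown for 4 of the genes as examples, chosen with their changes known: Hk2, Pfkp and Pfkfb3, which were lower with both hairpins, and Pfkfb4, which was not. The windows run from 250 bases before to 50 bases after a transcription start and come from RefSeq (GRCm38.p6), 5′ to 3′ on the strand of the gene. Capitals mark ACGTG and GCGTG on either strand, the core letters recognised by hypoxia-inducible factors; where a window holds CACGTG, the E-box, its letters contain ACGTG on both strands. The Hk2 window is chr6:82774405-82774704 (minus strand), the Pfkp window chr13:6648722-6649021 (minus strand), the Pfkfb3 window chr2:11502041-11502340 (minus strand) and the Pfkfb4 window chr9:108991652-108991951 (plus strand). For each gene the window with the start of a principal transcript was taken.
Hk2: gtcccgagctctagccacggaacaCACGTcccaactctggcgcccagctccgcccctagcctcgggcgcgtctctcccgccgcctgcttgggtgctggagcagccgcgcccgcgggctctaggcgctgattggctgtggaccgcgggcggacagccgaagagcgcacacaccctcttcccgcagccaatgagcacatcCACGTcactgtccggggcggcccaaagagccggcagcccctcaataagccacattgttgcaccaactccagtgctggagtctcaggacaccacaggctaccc
Pfkp: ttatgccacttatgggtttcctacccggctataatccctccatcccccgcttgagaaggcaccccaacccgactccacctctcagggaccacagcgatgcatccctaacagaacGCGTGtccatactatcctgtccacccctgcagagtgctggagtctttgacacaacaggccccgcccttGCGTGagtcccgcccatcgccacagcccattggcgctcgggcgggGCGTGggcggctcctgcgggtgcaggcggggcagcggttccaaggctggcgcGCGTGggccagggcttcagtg
Pfkfb3: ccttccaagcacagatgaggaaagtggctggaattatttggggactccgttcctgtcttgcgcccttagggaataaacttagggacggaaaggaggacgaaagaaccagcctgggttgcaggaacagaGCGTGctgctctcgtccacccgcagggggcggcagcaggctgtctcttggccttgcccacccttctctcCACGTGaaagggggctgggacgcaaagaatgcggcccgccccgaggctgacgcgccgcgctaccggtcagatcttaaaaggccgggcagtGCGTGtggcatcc
Pfkfb4: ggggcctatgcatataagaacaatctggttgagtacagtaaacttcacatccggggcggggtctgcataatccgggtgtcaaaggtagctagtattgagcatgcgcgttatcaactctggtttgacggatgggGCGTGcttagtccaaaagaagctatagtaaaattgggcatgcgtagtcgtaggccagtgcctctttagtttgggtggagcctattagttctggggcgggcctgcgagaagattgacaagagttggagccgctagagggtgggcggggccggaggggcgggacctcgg

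Both matches in the Hk2 window had A as the first base of the core, and all 4 in the Pfkp window had G. The Pfkfb3 window held 4 matches, 2 of each kind, and those with A lie in 1 E-box. The Pfkfb4 window held 1 match. All 4 windows had more CpG dinucleotides (25, 21, 20 and 16 in that order) than the median of 7 over all 32851 windows. Of the 16 windows of the 9 genes, 13 had a match of either kind. Genes that fell also had few: Pfkl had 1 match and Gpi1 none in their single windows, the windows of Hk1 had 0 and 5, and the second window of Pfkfb3 had 1, so the number of matches did not separate Pfkfb4 from the others. Among all windows of this length 43.8% had at least 1 match of either kind, 19.6% of the kind with A, 32.4% of the kind with G and 7.15% an E-box. Both cores contain a CpG, and these percentages are not matched for CpG content. Some windows of Pfkm and of Pfkfb2 also overlap each other, so the 16 windows are not independent. GGGCGG, the GC box, searched on both strands, occurred in 8 of the 16 windows and in 35.7% of all windows, with 4 matches each in the Pfkp and Pfkfb4 windows. A match is a run of letters and not a site of binding.

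Levels were first ordered within the control cells, per length of transcript. In TPM (counts divided by the exon length given with them and scaled to the same total in each library), Gpi1 was the most abundant of the 9 with nt-shRNA at 524.8 ± 55.1 (SD, n = 2), followed by Hk2 at 360.8 ± 28.0, Pfkp at 181.9 ± 23.4, Pfkl at 137.8 ± 20.3, Hk1 at 112.1 ± 2.65 and Pfkm at 70.4 ± 6.75 TPM. The PFKFB genes were far lower, with Pfkfb3 at 19.6 ± 1.99, Pfkfb2 at 5.10 ± 0.0702 and Pfkfb4 at 4.31 ± 0.0720 TPM. No 2 neighbours in this order overlapped between the 2 control libraries. With shRNA2 the order of the low pair was inverted. Pfkfb4 was 5.90 to 6.65 TPM in those libraries, above Pfkfb2 at 3.92 to 4.69 TPM. Pfkp, Pfkl and Hk1, which were distinct in the controls, overlapped with shRNA2 at 53.7 to 68.6, 51.9 to 57.5 and 44.6 to 60.0 TPM. The ranges of Gpi1 and Hk2 overlapped in both hairpin groups, although Gpi1 was above Hk2 within each library. The gap was narrowest in shRNA2 replicate 3, at 272.2 against 270.6 TPM. The exon length of Pfkp, 13401 bases, is the union of all its exons, against 4145 bases for its longest principal transcript, and the same ratio was 2.24 for Gpi1, 2.22 for Hk1 and 1.79 for Pfkl but 1.08 for Hk2. The order depends on this choice. Per kb of the longest principal transcript, a measure added after seeing the data, Gpi1 was still highest with nt-shRNA at 404.2 CPM per kb on average, but Pfkp at 202.2 stood above Hk2 at 134.6, and Hk1 at 85.7 overlapped with Pfkl at 84.8. Pfkm, Pfkfb3, Pfkfb2 and Pfkfb4 followed in the same order as before.

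Of the 9 genes, 8 were lower than nt-shRNA with shRNA1 and none was higher (edgeR quasi-likelihood test across 17445 genes, Benjamini-Hochberg adjusted p under 0.05). The background was 17.1% of all tested genes lower and 13.8% higher. With shRNA2, 8 were lower and 1, Pfkfb4, was higher, against 28.7% and 27.2% of all tested genes. Between the hairpins, 7 were lower with shRNA2 than with shRNA1, 1 was higher and 1 was not called, against 18.7% lower and 16.9% higher among all genes. The median log2 fold change of the 9 was -0.54, -1.24 and -0.55 in these 3 comparisons, while that of all tested genes was -0.0069, 0.0040 and -0.00082. The first 2 comparisons share the nt-shRNA libraries. Among the 9786 tested genes at least as long as the shortest of the 9, the medians were 0.02, 0.02 and -0.01, and 16.5%, 29.2% and 20.8% were lower.

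**Figure D1:**
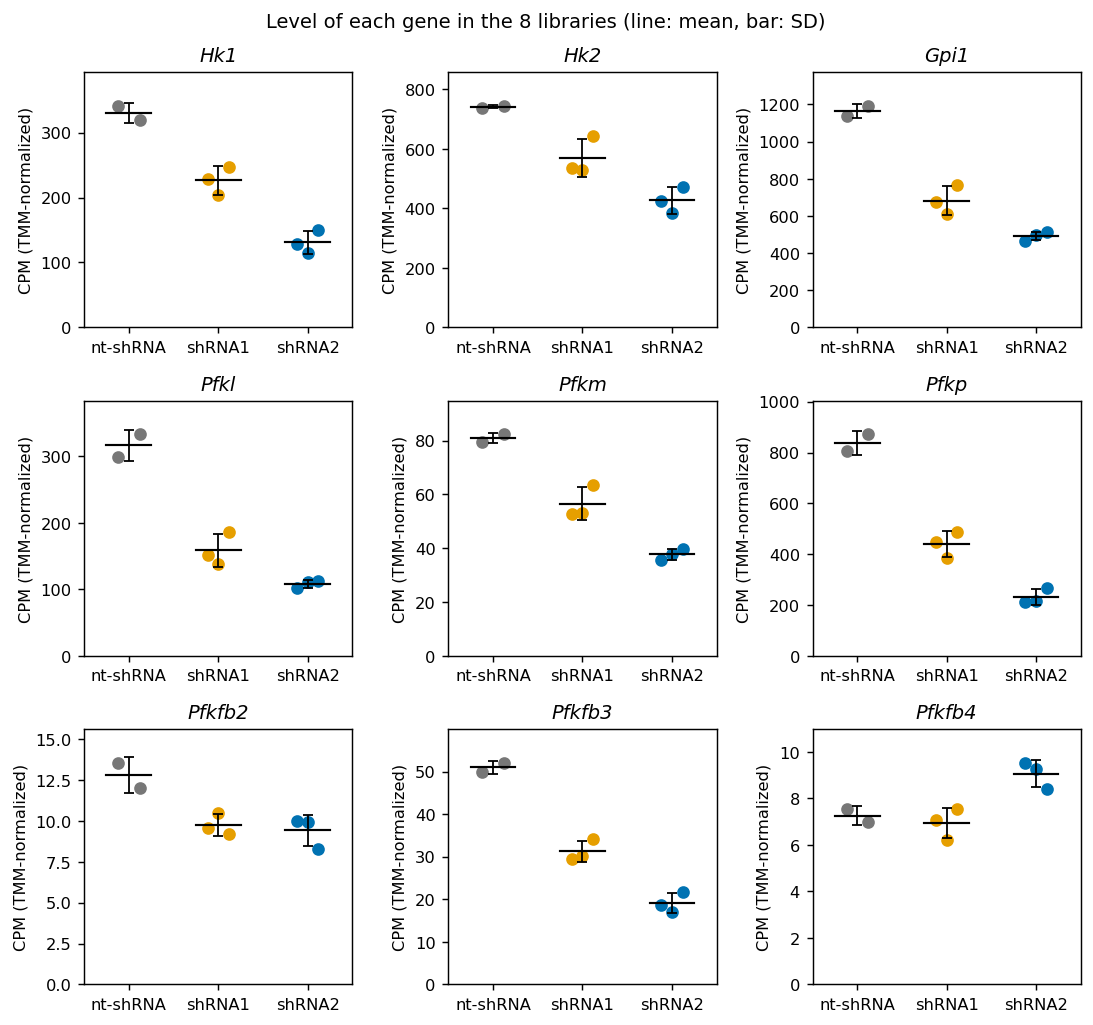
Level of each of the 9 genes in TMM-normalized CPM (vertical axes, from 0) by group (horizontal axes); points are libraries, lines are means and bars SD. For 7 genes the 3 groups are separate and descend from nt-shRNA to shRNA2, whereas for Pfkfb2 both hairpin groups overlap below the controls, and for Pfkfb4 the shRNA2 libraries lie above the others.

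Both hexokinases fell, Hk1 (chr10:62268855-62379908) by more than Hk2 (chr6:82725025-82774454). Hk1 was 341.4 and 318.8 CPM with nt-shRNA, 228.9, 203.2 and 247.3 CPM with shRNA1 and 129.1, 114.6 and 149.4 CPM with shRNA2. The 3 groups did not overlap. Against nt-shRNA, Hk1 was 1.46-fold lower with shRNA1 (log2 fold change -0.54, SE 0.09, adjusted p = 0.000131) and 2.52-fold lower with shRNA2 (-1.33, SE 0.09, adjusted p = 7.2e-10). Hk2 was 739.1 and 745.0 CPM with nt-shRNA, 534.8, 530.4 and 644.8 CPM with shRNA1 and 425.3, 383.2 and 471.3 CPM with shRNA2. Its groups were also separate, with shRNA1 replicate 3 closest to the controls. Hk2 was 1.30-fold lower with shRNA1 (-0.38, SE 0.08, adjusted p = 0.00207) and 1.74-fold lower with shRNA2 (-0.80, SE 0.08, adjusted p = 2.1e-07). Directly compared, shRNA2 was below shRNA1 by 0.79 for Hk1 and by 0.42 for Hk2 on the log2 scale.

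Gpi1 (chr7:34201330-34230336), at the isomerase step between the kinases, was 1138 and 1193 CPM with nt-shRNA, 674.1, 607.8 and 766.1 CPM with shRNA1 and 466.8, 497.6 and 512.3 CPM with shRNA2. The groups did not overlap. It was 1.71-fold lower with shRNA1 (log2 fold change -0.77, SE 0.08, adjusted p = 7.1e-07) and 2.37-fold lower with shRNA2 (-1.24, SE 0.08, adjusted p = 3.0e-10).

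The phosphofructokinase subunits included the gene with the largest fall of the 9. Pfkp (chr13:6579768-6648777), the platelet subunit, was 804.4 and 872.2 CPM with nt-shRNA, 446.2, 385.0 and 485.6 CPM with shRNA1 and 212.3, 216.8 and 268.1 CPM with shRNA2. It was 1.91-fold lower with shRNA1 (log2 fold change -0.93, SE 0.09, adjusted p = 6.6e-07) and 3.61-fold lower with shRNA2 (-1.85, SE 0.09, adjusted p = 3.6e-11). Pfkl (chr10:77986947-78010083), the liver subunit, was 299.3 and 333.1 CPM with nt-shRNA, 151.3, 138.6 and 185.9 CPM with shRNA1 and 101.9, 111.1 and 112.0 CPM with shRNA2. Pfkl had the largest fall of the 9 with shRNA1, 1.99-fold (-0.99, SE 0.09, adjusted p = 2.2e-07), and was 2.92-fold lower with shRNA2 (-1.55, SE 0.09, adjusted p = 1.4e-10). Pfkm (chr15:98092589-98132451), the muscle subunit, was 79.7 and 82.4 CPM with nt-shRNA, 52.8, 53.2 and 63.6 CPM with shRNA1 and 35.5, 37.7 and 39.8 CPM with shRNA2. It fell least of the subunits, 1.43-fold with shRNA1 (-0.52, SE 0.08, adjusted p = 8.4e-05) and 2.15-fold with shRNA2 (-1.10, SE 0.08, adjusted p = 2.5e-09). For all 3 subunits the groups were separate. The direct comparison of the hairpins gave log2 fold changes of -0.92 for Pfkp, -0.55 for Pfkl and -0.59 for Pfkm, with adjusted p-values of 9.1e-07, 6.3e-05 and 1.6e-05.

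The PFKFB genes did not move together. Pfkfb3 (chr2:11471433-11554077), whose product mainly makes fructose 2,6-bisphosphate, was 49.9 and 52.1 CPM with nt-shRNA, 29.5, 30.3 and 34.1 CPM with shRNA1 and 18.6, 17.1 and 21.8 CPM with shRNA2. The groups were separate, with falls of 1.63-fold (log2 fold change -0.70, SE 0.09, adjusted p = 1.3e-05) and 2.66-fold (-1.41, SE 0.09, adjusted p = 7.2e-10). Pfkfb2 (chr1:130689182-130729253), the form known from heart, was 13.6 and 12.02 CPM with nt-shRNA, 9.56, 10.5 and 9.23 CPM with shRNA1 and 9.998, 9.97 and 8.31 CPM with shRNA2. Both hairpin groups were below the controls and overlapped each other.

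Against nt-shRNA, Pfkfb2 was 1.31-fold lower with shRNA1 (log2 fold change -0.39, SE 0.12, adjusted p = 0.0184) and 1.36-fold lower with shRNA2 (-0.44, SE 0.12, adjusted p = 0.00465). The call with shRNA1 was lost without nt-shRNA replicate 1 (adjusted p = 0.199) or shRNA1 replicate 1 (adjusted p = 0.0563), and that with shRNA2 without nt-shRNA replicate 1 (adjusted p = 0.0724). Between the hairpins the log2 fold change was -0.05 (SE 0.11, adjusted p = 0.774), so Pfkfb2 was the gene of the 9 for which a difference between shRNA2 and shRNA1 was not called. Its counts were 181 to 362 per library.

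Pfkfb4 (chr9:108991778-109032228), first described in testis, was 7.53 and 6.97 CPM with nt-shRNA, 7.08, 6.22 and 7.52 CPM with shRNA1 and 9.53, 9.24 and 8.40 CPM with shRNA2. The shRNA2 libraries lay above all others, and the shRNA1 and nt-shRNA libraries overlapped. With shRNA1 the log2 fold change was -0.06 (SE 0.13, adjusted p = 0.785). With shRNA2 it was 0.32, a 1.25-fold higher level (SE 0.13, adjusted p = 0.0445), and against shRNA1 it was 0.38 (SE 0.12, adjusted p = 0.0194). These calls were marginal. The first was lost in 8 of 15 alternative fits, among them DESeq2 (adjusted p = 0.0739) and edgeR with replicate number as a block (0.0506). It was also lost without shRNA1 replicate 1 (adjusted p = 0.0535), shRNA2 replicate 1 (0.123) or shRNA2 replicate 2 (0.0760). Without nt-shRNA replicate 1 the log2 fold change was 0.38, and without nt-shRNA replicate 2 it was 0.26. The second was lost without shRNA1 replicate 2 (adjusted p = 0.0926), shRNA2 replicate 1 (0.0786) or shRNA2 replicate 2 (0.0514). Counts were 126 to 211 per library.

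**Figure D2:**
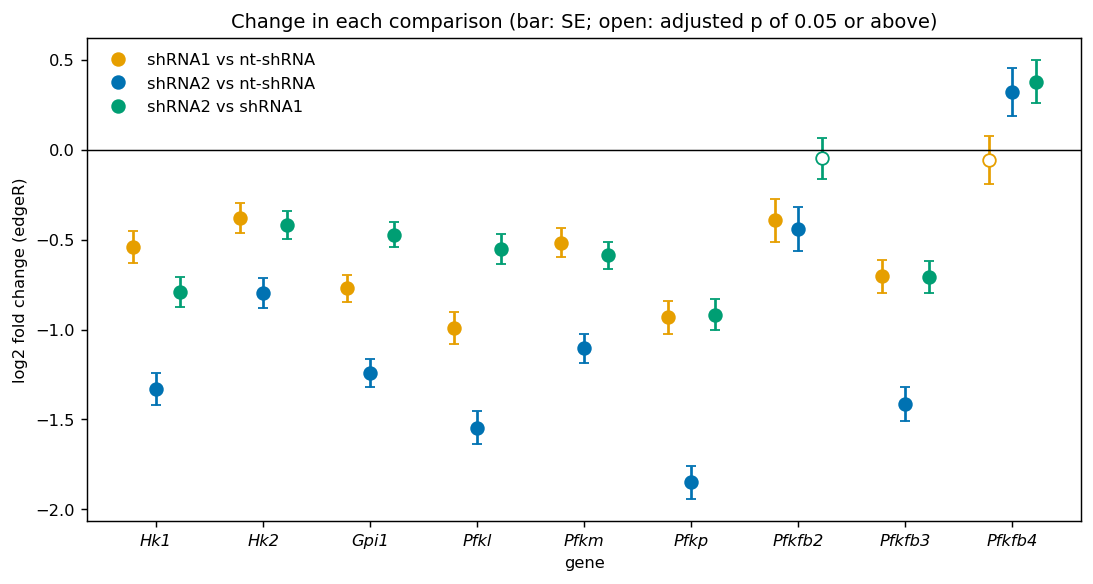
Log2 fold change from edgeR (vertical axis) of each gene (horizontal axis) for shRNA1 against nt-shRNA, shRNA2 against nt-shRNA and shRNA2 against shRNA1; bars are SE and open points have an adjusted p of 0.05 or above. The lowest point is Pfkp with shRNA2 at -1.85, and Pfkfb4 is the one gene with points above 0.

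The libraries within a group differed in the same direction for most of these genes. In the shRNA1 group, replicate 3 had the highest level for 8 of the 9 genes, Pfkfb2 being the exception. In the shRNA2 group, replicate 3 was highest for 7 of the 9. That library also had the highest Eftud2 of its group at 234.7 CPM, while shRNA1 replicate 3 had the lowest Eftud2 of its own at 225.3 CPM. The fits without an nt-shRNA library leave 1 control, which is then assumed to vary like the hairpin groups. With that limit, in no fit that left out 1 library was the fall of Hk1, Hk2, Gpi1, Pfkl, Pfkm, Pfkp or Pfkfb3 lost in any of the 3 comparisons.

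The summed level of each family was then compared, in CPM per kb of exon. The hexokinase sum was 163.0 ± 1.16 (SD, n = 2) with nt-shRNA, 122.0 ± 13.1 (n = 3) with shRNA1 and 86.8 ± 9.43 (n = 3) with shRNA2, or 74.9% and 53.3% of the control mean. The PFK sum fell further, from 134.2 ± 7.73 to 73.4 ± 8.97 and 44.9 ± 3.55 CPM per kb, which is 54.7% and 33.4% of the control mean. The PFKFB sum was 9.998 ± 0.0317, 6.91 ± 0.363 and 5.69 ± 0.140 CPM per kb, or 69.1% and 56.9%. These sums are given as descriptions, since each of them rests on the genes tested above.

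The isoenzyme composition was compared as the share of each gene in the counts per kb of its family, which needs no scaling between libraries. Each share was tested between the 3 groups with an exact permutation test over all 560 arrangements of the libraries, one-sided by construction, with p-values adjusted over 7 shares. The smallest p this design allows is 0.00357. The test asks whether the 3 groups differ and not which pair does, and shares of 1 family add to 100% and are not independent. For 6 of the 7 shares the adjusted p was under 0.05. The exception was Pfkfb2 (adjusted p = 0.118, exact permutation test).

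The largest differences in share were in the PFKFB family. Pfkfb3 made up 65.9% and 69.1% of the family with nt-shRNA, 58.4%, 59.5% and 61.5% with shRNA1 and 42.5%, 40.9% and 50.1% with shRNA2. The groups did not overlap, and the means were 67.5% ± 2.23 (SD, n = 2), 59.8% ± 1.58 (n = 3) and 44.5% ± 4.92 (n = 3). The exact permutation p was 0.00357, the smallest possible, and the adjusted p was 0.00833. Pfkfb4 made up 15.4% and 14.3% with nt-shRNA, 21.8%, 19.0% and 21.1% with shRNA1 and 33.8%, 34.3% and 30.0% with shRNA2. Its mean share thus went from 14.9% ± 0.775 to 20.6% ± 1.47 and 32.7% ± 2.34 with the same p-values by the exact permutation test. With shRNA1 the higher share went with no called change of Pfkfb4 itself, while Pfkfb2 and Pfkfb3 were lower. Pfkfb2 had shares of 17.6% ± 1.46, 19.6% ± 2.09 and 22.9% ± 2.58, and the groups overlapped.

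Among the PFK subunits the share of Pfkm rose, although its level fell. It was 18.5% and 17.7% with nt-shRNA, 22.03%, 24.3% and 22.9% with shRNA1 and 25.5%, 25.6% and 24.5% with shRNA2, with an exact permutation p of 0.00357 and an adjusted p of 0.00833. The lowest shRNA2 library stood just above the highest shRNA1 library. Pfkp had 46.6% in both nt-shRNA libraries, 46.4%, 43.9% and 43.6% with shRNA1 and 38.0%, 36.7% and 41.1% with shRNA2 (adjusted p = 0.0150, exact permutation test). The shRNA2 libraries were the lowest, and shRNA1 replicate 1 was next to the controls. The call was lost in 3 of 12 alternative tests. With counts not divided by length the adjusted p came to 0.05 (exact permutation test). The call was also lost with the longest coding sequence as length, a setting added after seeing the data. The remaining alternative left out nt-shRNA replicate 1 and so had 1 control library.

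The share of Pfkl had no common direction. It was 35.3% ± 0.634 with nt-shRNA, 32.3% ± 1.07 with shRNA1 and 36.3% ± 1.66 with shRNA2 (adjusted p = 0.0375, exact permutation test). Leaving out 1 library gives 210 or 140 arrangements and a smallest p of 0.00952 or 0.0143, so a lost call there also reflects the smaller design. The call was lost in 7 of the 8 such tests, with shRNA2 replicate 3 as the exception, while the mean difference from nt-shRNA stayed between -3.62 and -2.56 points with shRNA1 and between 0.23 and 1.87 points with shRNA2. The choice of length moved these shares. With counts not divided by length, the mean difference of Pfkl from nt-shRNA was -1.39 points with shRNA1 and 3.15 points with shRNA2, against -3.01 and 0.97 points in the main analysis, and the adjusted p came to 0.05, so that the call was lost. With the length of the longest principal transcript, Pfkp made up 64.2% of the family with nt-shRNA and 57.0% with shRNA2, and Pfkm 8.94% and 13.4%.

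In the hexokinase pair, Hk2 made up 75.6% and 77.0% with nt-shRNA, 77.0%, 78.9% and 78.8% with shRNA1 and 82.5%, 82.7% and 81.8% with shRNA2. The shRNA2 libraries were separate from all others, and shRNA1 replicate 1 overlapped with the controls. The mean share was 76.3% ± 0.977 (SD, n = 2), 78.2% ± 1.10 (n = 3) and 82.3% ± 0.442 (n = 3), with an adjusted p of 0.0150 by the exact permutation test. Without nt-shRNA replicate 1, where the test has 140 arrangements, the adjusted p was 0.0600.

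**Figure D3:**
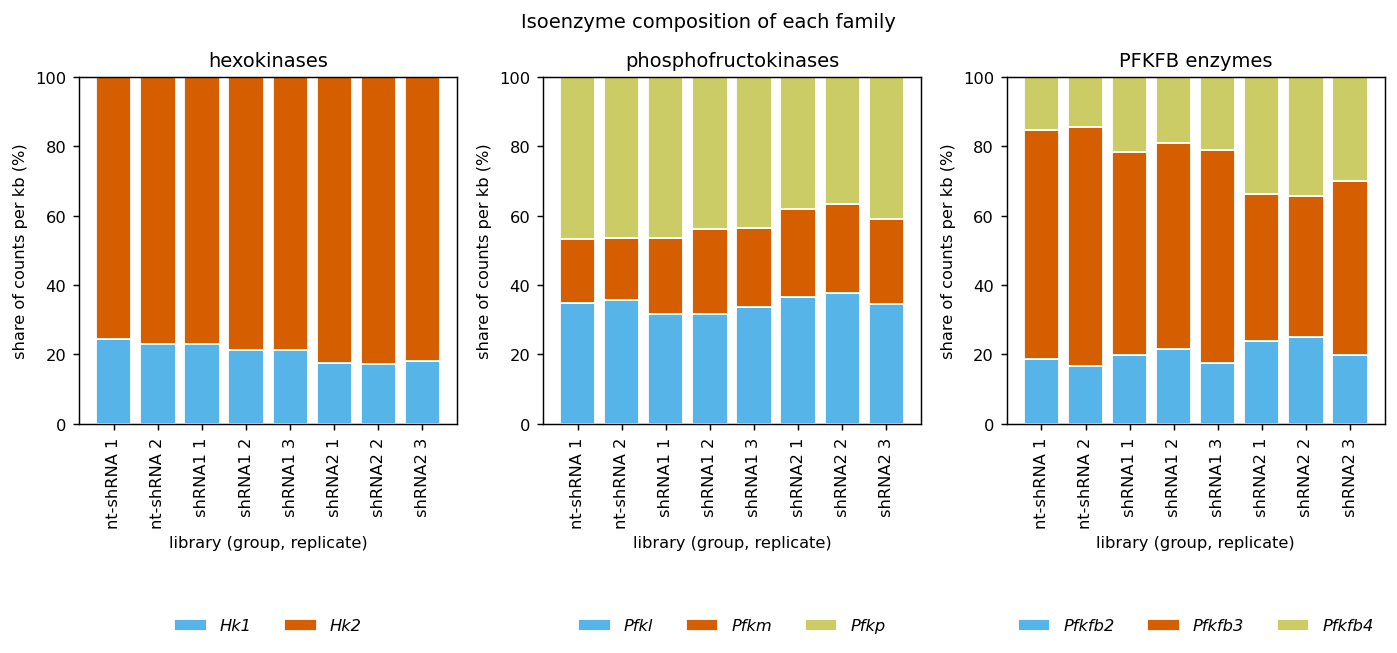
Share of each gene in the counts per kb of its family (vertical axes, percent) in each of the 8 libraries (horizontal axes), for the hexokinases, the phosphofructokinases and the PFKFB enzymes. Pfkfb3 goes from 69.1% at most in a control library to 40.9% at least in an shRNA2 library, while the share of Hk2 stays between 75.6% and 82.7%.

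Pfkfb1, the liver form of the PFKFB enzymes, was not among the 9 genes but was expressed in these cells. It was 15.9 and 17.4 CPM with nt-shRNA, 12.5, 12.9 and 12.7 CPM with shRNA1 and 7.999, 7.85 and 8.49 CPM with shRNA2. The groups were separate (log2 fold change -0.39, SE 0.10, adjusted p = 0.00717 with shRNA1 and -1.04, SE 0.11, adjusted p = 1.5e-07 with shRNA2). With Pfkfb1 counted in the family, it made up 29.3% ± 1.41 with nt-shRNA, 31.5% ± 1.17 with shRNA1 and 26.2% ± 0.664 with shRNA2. Pfkfb3 then had 47.7%, 41.0% and 32.8%, and Pfkfb4 10.5%, 14.1% and 24.1%.

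The other genes of these steps and around them were taken from lists drawn up by role, and their counts stand beside the shares of all tested genes given above (17.1% lower and 13.8% higher with shRNA1, 28.7% and 27.2% with shRNA2). Among further enzymes of the same steps, Hk3 and Hkdc1, also hexokinases, did not pass the filter and had at most 0.178 and 0.541 CPM. Adpgk, which phosphorylates glucose with ADP, was not called in any comparison, with log2 fold changes of -0.03 (SE 0.06, adjusted p = 0.774) with shRNA1 and -0.10 (SE 0.06, adjusted p = 0.159) with shRNA2.

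Among 7 genes acting against these steps, 5 were tested. With shRNA2, 1 was lower and 2 were higher, and with shRNA1, 1 was lower and 1 higher, which is near those shares in so short a list. The lower one was G6pc3, a glucose-6-phosphatase found in many tissues, with a log2 fold change of -0.53 (SE 0.10, adjusted p = 0.000545) with shRNA1 and -1.18 (SE 0.10, adjusted p = 2.3e-08) with shRNA2. Tigar, a p53 target whose product lowers fructose 2,6-bisphosphate, was 81.0 to 82.5 CPM with nt-shRNA, 94.8 to 107.4 CPM with shRNA1 and 116.9 to 129.5 CPM with shRNA2. Tigar rose by 0.29 (SE 0.07, adjusted p = 0.00292) and 0.60 (SE 0.07, adjusted p = 5.3e-07) on the log2 scale. The median log2 fold change of this list was -0.16 with shRNA1 and -0.12 with shRNA2.

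Downstream of PFK, 9 of 12 tested genes of lower glycolysis were lower with shRNA1 and 12 of 12 with shRNA2, with medians of -0.56 and -0.90. Pgk1, phosphoglycerate kinase, had -0.96 (SE 0.08) and -1.78 (SE 0.09), and Aldoc, an aldolase best known from brain, had -1.30 (SE 0.15) and -3.12 (SE 0.17). Of 8 tested genes for glucose uptake and lactate, 7 were lower with each hairpin, with medians of -0.58 and -1.08. Slc16a3, a lactate exporter, was 2.27-fold lower with shRNA1 and 5.54-fold lower with shRNA2, and Ldhb, a lactate dehydrogenase subunit, 1.71-fold and 3.32-fold lower.

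Of 9 genes at the branches off the hexose phosphates, 6 were lower with shRNA1 and 9 with shRNA2, with medians of -0.40 and -0.62. Tkt, transketolase of the pentose phosphate pathway, had -0.56 (SE 0.07) and -0.86 (SE 0.07). Pgm1, a phosphoglucomutase on the way to glycogen, had -0.57 (SE 0.10) and -1.20 (SE 0.10). No gene was higher in the lists of lower glycolysis, uptake and lactate, or the branches, in any of the 3 comparisons.

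**Figure D4:**
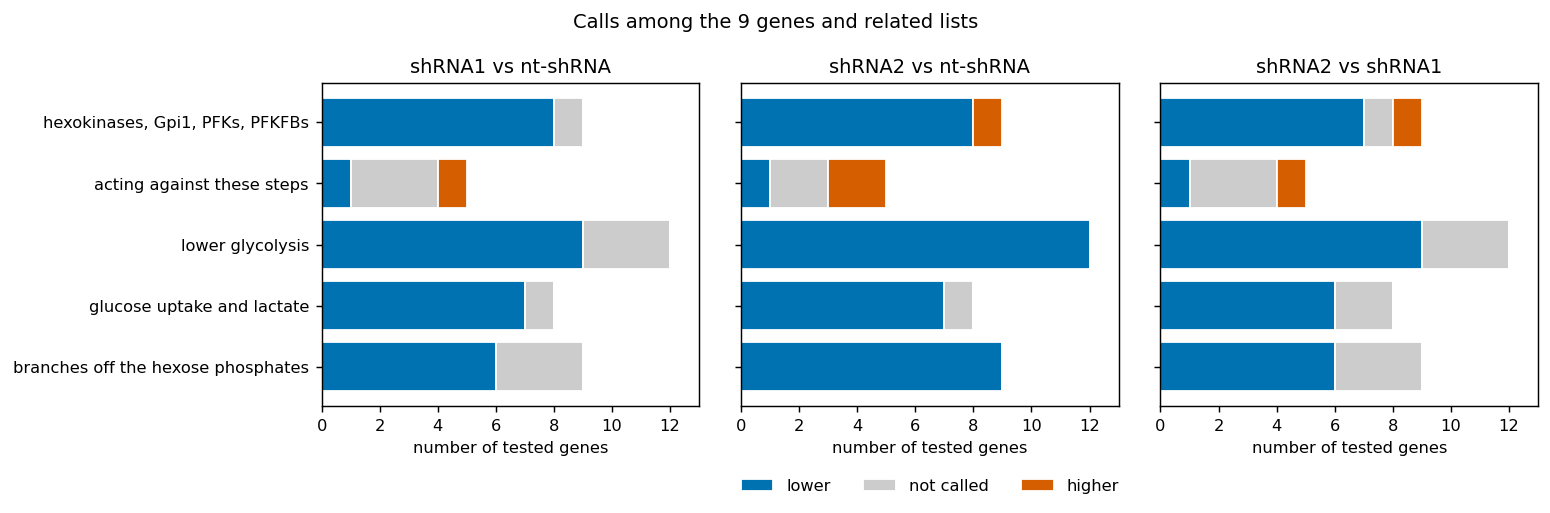
Number of tested genes (horizontal axes) called lower, not called or called higher for the 9 genes and 4 related lists, in each of the 3 comparisons. With shRNA2 all 12 tested genes of lower glycolysis and all 9 branch genes were lower, and of the genes acting against these steps 1 was lower and 2 were higher.

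The pattern of the 9 genes over the libraries was summarised as the mean of their standardized log2 CPM. Over the 8 libraries Gpi1 followed the mean of the other 8 genes most closely (Pearson r = 0.993), then Pfkl (0.9903), Pfkp (0.970), Pfkm (0.967), Pfkfb3 (0.965), Hk2 (0.947), Hk1 (0.936) and Pfkfb2 (0.723), while Pfkfb4 ran against it (r = -0.632). The 8 libraries fall into 3 groups and share their controls, so these values mainly describe the order of the groups. Among the other 17436 genes tested, the most similar were Tnfrsf12a (r = 0.998), Arrdc2 (0.998), Spint2 (0.998), Bsg (0.997) and Tkt (0.997), and 78 genes had r over 0.99. Bsg encodes basigin, a membrane partner of lactate transporters, with log2 fold changes of -0.68 for shRNA1 and -1.01 for shRNA2.

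Counting was without strand and without fragments shared between genes, and exons of other genes overlap some of the 9. The effect on the counts of the 9 was not measured. Exons of Pitrm1, on the opposite strand, cover 748 bases or 5.58% of the exon length of Pfkp, with 3375 to 5468 counts per library for Pitrm1. Yod1, also on the opposite strand, covers 2.12% of Pfkfb2 and had 282 to 383 counts, and Senp1 covers 0.539% of Pfkm and had 1379 to 2118 counts. Gm29427 covers 17.4% of Pfkfb2 and had at most 2 counts. Gm26762 covers 11.5% of Gpi1, and Gm26513 covers 10.2% of Pfkm with at most 30 counts. The antisense gene Hk1os covers 1.84% of Hk1 and had 8 to 18 counts per library.

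The scale also matters for small changes. On the TPM scale the median tested gene was 0.23 higher on the log2 scale with each hairpin than with nt-shRNA, a shift that TMM-normalized CPM does not have. Relative to that median, all 9 genes were lower with shRNA1 and all but Pfkfb4 with shRNA2. Taken against 0, the log2 TPM ratio of Pfkfb4 was 0.17 with shRNA1 and 0.55 with shRNA2. With shRNA1 that of Hk2 was -0.15, that of Hk1 -0.31 and that of Pfkm -0.29. For Pfkfb2 it was -0.15 with shRNA1 and -0.22 with shRNA2, and for Eftud2 0.06 and -0.07.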

How the data were processed

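Poly(A)-selected RNA of 8 mouse embryonic stem cell libraries was sequenced as paired ends. The authors aligned reads with STAR to mm10 (GRCm38), counted fragments on exons of GENCODE M24 genes with featureCounts 1.6.2 without strand, left out multi-mapping fragments and those shared between genes, and deposited raw counts with a length per gene. The file has 55385 genes, of which 55144 matched a symbol by identifier; no per-sample column was left out (0).

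Genes passing filterByExpr (minimum count 10; 17445 genes) were normalized by TMM and tested with edgeR 4.0.16 (R 4.3.3) in a fit over all 8 libraries with a coefficient per group, at a Benjamini-Hochberg adjusted p under 0.05. The SE was taken from the F statistic. CPM and TPM were computed from the counts. In each library 3 counts correspond to 0.105 to 0.148 CPM. The biological coefficient of variation was 0.0638, and chi-square statistics per gene between replicates were 3.12 to 12.02, so no library repeated another. The edgeR fit was run on simulated counts first, and the permutation test on made-up values with a known answer.

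The authors tested with DESeq2; DESeq2 1.42.0, its size factors, library size alone, other filters, fewer groups, a replicate block and each library left out were alternatives here. Shares were tested by exact permutation (Python 3.11.15, scipy 1.17.1). Genes named are all 9, from each list the 2 lower genes and the 1 higher gene with the smallest adjusted p under shRNA2, Eftud2, and the 5 genes most correlated with the mean of the 9 (log2 CPM with a prior count of 2); Pfkfb1, Adpgk and the genes overlapping the 9 were added after their values were seen. The genes and lists were chosen with earlier results of these data known. Promoter windows came from RefSeq, and transcript lengths from GENCODE M21. The result of 1 gene in the list of other enzymes of the same steps is not reported here, nor are counts over that list.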

Additional observations from a re-analysis of the deposited data

How the results depend on the processing

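Over 15 alternative fits, 385 of 405 values of the 9 genes kept their direction and their side of the threshold. A further 15 lost significance, and 5 changed sign without being called in either analysis (Pfkfb4 in shRNA1 against nt-shRNA, up to 0.06, and Pfkfb2 between the hairpins, up to 0.04). All 20 concerned Pfkfb2 or Pfkfb4. The number of genes among the 9 that were higher with shRNA2 than with nt-shRNA, 1 in the main analysis (Pfkfb4), was 0 with DESeq2, with no filter on low counts and with the replicate block, and ranged from 0 to 1 when single libraries were left out, as did that between the hairpins. The cause was not tested. Leaving out single libraries gave 2948 to 5903 called genes for shRNA1 against nt-shRNA (5388 in the main analysis), the lowest without nt-shRNA replicate 1, and 3 to 6 isoenzyme shares called (6 in the main analysis), again lowest without nt-shRNA replicate 1, where the permutation test has 140 arrangements in place of 560. With library size alone the median gene shifted by 0.11 with shRNA1, the share of calls that were higher went from 44.7% to 70.5% with shRNA1 and from 48.7% to 58.9% with shRNA2, and Pfkfb2 with shRNA1 was no longer called (adjusted p = 0.0855), while the other 7 genes that were lower remained lower. With counts not divided by length 4 shares were called. Of 3 settings added after seeing the data, the longest coding sequence as length gave 4 shares, the longest principal transcript 5, and counting Pfkfb1 in the family 7 of 8. A coding length from RefSeq proteins was not run, since no such table was used here. By Spearman correlation 0 of the 5 most similar genes stayed among the 5 highest, as 169 genes ranked above them.

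Whether the replicate numbers pair the libraries was not settled. Correlations of same-numbered libraries' deviations were 0.022 to 0.074 between the hairpin groups, and those of differently numbered libraries were -0.083 to 0.028. Same-numbered correlations with nt-shRNA were -0.026 to 0.011. The deviations of the 2 nt-shRNA libraries mirror each other, so the correlations with nt-shRNA cannot decide the question. With the replicate block, 6018, 10034 and 6518 genes were called in the 3 comparisons, against 5388, 9758 and 6204 without it, Pfkfb4 with shRNA2 had an adjusted p of 0.0506 and was not called, and Eftud2 with shRNA1 was called lower (log2 fold change -0.21, adjusted p = 0.0206). Pfkfb2 and Pfkfb4 had 126 to 362 counts per library, and the part of depth in their lost calls was not tested.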
